A study of Mus musculus with 30 samples.

Results

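The 10 genes described here are transcribed mainly by microglia and macrophages in the adult central nervous system: Lyz2, Tyrobp, Csf1r, C1qa, C1qb, C1qc, Ctss, Cd68, Fcer1g and Aif1. They were taken by symbol or synonym from the array annotation, and all 10 had a probe set. With 15 probe sets that carried 1 gene symbol, they made up 10 of 8251 genes and 15 of 12422 probe sets. Lyz2, Csf1r, C1qb, Cd68 and Fcer1g had more than 1 probe set, and 1 further probe set that named Lyz2 together with another gene is not described. The arrays measured RNA of spinal motoneuron captures.

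Laser capture lifts cells out of a tissue section under the microscope, and a capture can hold parts of the cells that touch the one aimed at. The IML pool held motoneurons of the intermediolateral column, which are preganglionic autonomic neurons, and the LMN and MMN pools held lateral and medial motoneurons, which are somatic. All 3 pools came from the spinal cord of each of 5 adult sham-operated mice, so that every sample is a control of that kind; the labels give neither strain nor sex. Each of the 15 samples was made from 400 captures, and its RNA was split, amplified and hybridised to 2 arrays, 30 arrays in all. Values below are intensities averaged over these 2 arrays on the log scale, differences are on the log2 scale with their standard error, and every n is 5 animals per pool.

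Microglia are the resident macrophages of the central nervous system, and related macrophages lie along its vessels and in the meninges. Their survival depends on the receptor Csf1r, their activating receptors signal through the adaptor chains Tyrobp and Fcer1g, and they are the main source of the complement subunit C1q in the brain. Ctss, Cd68 and Lyz2 belong to their lysosomes and granules. In captures, fewer cells of a type and less RNA per cell cannot be told apart.

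C1qa, C1qb and C1qc lie next to each other on chromosome 4, with no other gene start between them, and their chains form C1q together. Promoters were given for 7 of the 10 genes. They were searched on both strands, over the 250 bases before the start, for GAGGAAG, the binding motif of the macrophage factor Spi1 (PU.1). The motif was found in 1 of the 7, that of C1qc, and 3486 of 32851 mouse promoters, 10.6%, held it. The promoters of C1qc and C1qb are shown because these genes are neighbours whose chains form 1 protein; C1qc and 1 of the 2 C1qb probe sets were called higher in IML below. They are from RefSeq, assembly GRCm38.p6, minus strand, written 5′ to 3′, at chr4:136892915-136893164 for C1qc and chr4:136886201-136886450 for C1qb. Capitals mark the motif, which is on the opposite strand at positions -194 to -188 from the start.
C1qc: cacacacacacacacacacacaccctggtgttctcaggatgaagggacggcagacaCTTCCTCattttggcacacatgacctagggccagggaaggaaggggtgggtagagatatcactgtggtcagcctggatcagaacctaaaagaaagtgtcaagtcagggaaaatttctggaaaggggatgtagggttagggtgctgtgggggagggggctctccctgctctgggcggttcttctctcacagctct
C1qb: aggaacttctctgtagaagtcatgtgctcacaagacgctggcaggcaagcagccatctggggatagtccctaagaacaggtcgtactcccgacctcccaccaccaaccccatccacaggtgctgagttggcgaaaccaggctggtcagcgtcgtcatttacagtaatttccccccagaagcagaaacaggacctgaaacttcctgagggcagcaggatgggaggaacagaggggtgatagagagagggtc
A match of these letters is a description, not a binding site, and its absence in C1qb says only that the letters are not in this window.

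In IML captures 7 of the 10 genes were higher than in the mean of both somatic pools, and none was lower. They were Lyz2, Tyrobp, Csf1r, C1qa, C1qb, C1qc and Ctss, each through 1 probe set, which made 7 of 15 probe sets called at a Benjamini-Hochberg adjusted p under 0.05 in limma. C1qb was called through its dimmer probe set only, whereas the gene lists below take the brightest probe set of each gene. Among all probe sets, 5.52% were called in this comparison in either direction, 3.44% higher in IML and 2.09% lower. The differences ran from 0.33 for C1qc to 1.58 for Lyz2, which are folds of 1.25 to 2.99. The median over the 15 probe sets was 0.24, against -0.01 over all probe sets. A difference above 0 was measured in 13 of the 15, against 46.4% of all probe sets, and 10 were higher in IML in 5 of 5 animals, against 7.78% of all.

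**Figure D1:**
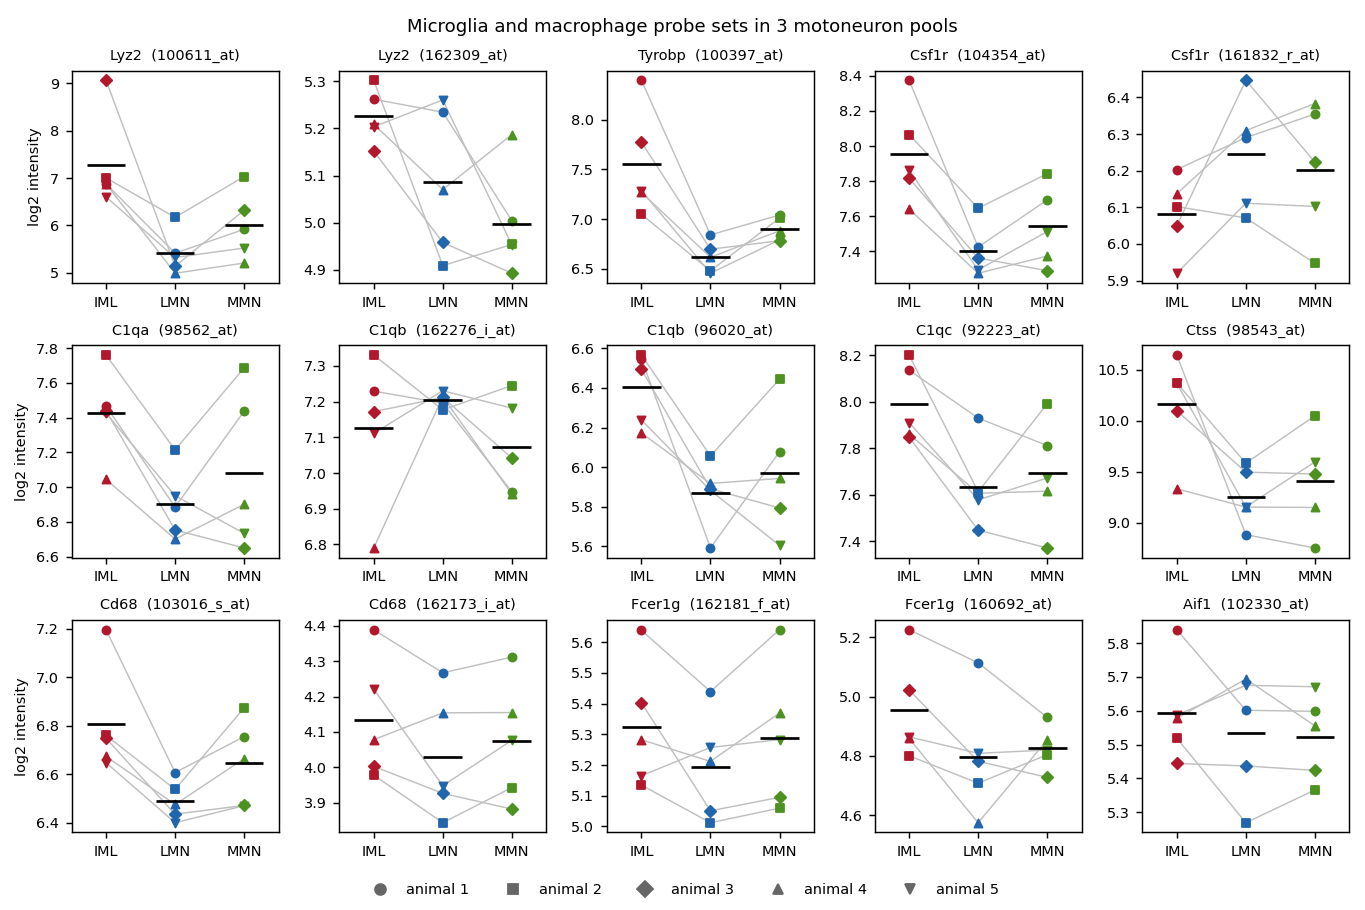
Log2 intensity of the 15 probe sets of the 10 genes in each sample, with 1 panel per probe set, the pools IML, LMN and MMN along the x axis, lines joining samples of 1 animal and bars at the mean of 5 animals. In the panels of Lyz2 100611_at and Tyrobp the IML points lie above all LMN points, whereas in those of Aif1 and of both Fcer1g probe sets the pools overlap.

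Csf1r encodes the receptor for the growth factors Csf1 and Il34. Its brighter probe set, 104354_at, read 332, 268, 225, 199.6 and 233 in the IML samples of animals 1 to 5, 172, 200.3, 165, 155 and 157 in LMN, and 207, 229.6, 157, 166 and 183 in MMN. In each animal the IML sample was the highest of the 3, but across animals the pools overlapped: the IML sample of animal 4 lay under 1 LMN sample and 2 MMN samples, and that of animal 3 under the MMN sample of animal 2. Csf1r was higher in IML than in the somatic pools by 0.48 ± 0.07 (adjusted p = 0.005089), a 1.40-fold difference, and by 0.55 ± 0.08 against LMN alone (adjusted p = 0.003231). Against MMN the difference was 0.41 ± 0.08 in 5 of 5 animals and missed the threshold (adjusted p = 0.07637). The second probe set of Csf1r, 161832_r_at, ran the other way without passing the test, with -0.14 ± 0.06 against the somatic pools (adjusted p = 0.1941). Over the 15 samples the 2 probe sets of the gene had a Pearson correlation of -0.45, a description of values that share their libraries.

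Tyrobp, also called DAP12, is an adaptor chain with an ITAM, the tyrosine motif through which receptors such as Trem2 signal. It read 336, 132, 219, 154 and 156 in IML, 115, 89.3, 104, 98.1 and 87.8 in LMN, and 132, 129, 110.1, 118 and 111 in MMN, for animals 1 to 5. It was the 1 probe set of the 15 in which all 5 IML values exceeded all 10 somatic values, which 0.177% of all probe sets did, and the margin was narrow, 132.34 in IML of animal 2 over 131.66 in MMN of animal 1. Tyrobp was higher in IML than in the somatic pools by 0.79 ± 0.13 (adjusted p = 0.00857), a 1.73-fold difference in 5 of 5 animals. By animal this difference ranged between 0.30 in animal 2 and 1.45 in animal 1.

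Fcer1g, the Fc receptor gamma chain, is an ITAM adaptor as well, and neither of its probe sets was called. Both were dim, with mean levels at percentiles 18.3 and 13.8 of all probe sets. Whether they detect the transcript was not tested, so a transcript that does not differ and one that is not detected cannot be told apart. Probe set 162181_f_at read 49.8, 35.1, 42.3, 38.9 and 35.9 in IML, 43.4, 32.3, 33.2, 37.1 and 38.2 in LMN, and 49.9, 33.4, 34.2, 41.3 and 38.9 in MMN. The pools overlapped throughout, and animal 1 was the highest sample of each. The difference of IML from the somatic pools was 0.08 ± 0.06 (adjusted p = 0.4755). Probe set 160692_at gave 0.14 ± 0.06 (adjusted p = 0.1865), with the IML sample higher in 5 of 5 animals. The Pearson correlation of the 2 probe sets over 15 samples, 0.75, was the highest among the 5 genes with more than 1 probe set.

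The genes of all 3 C1q chains were called higher in IML. C1qa encodes the A chain, and its probe set read 177, 217, 174, 132 and 172 in IML, 118, 149, 108, 104 and 124 in LMN, and 173, 206, 100.4, 119.5 and 106 in MMN. The MMN samples of animals 1 and 2 lay within the IML values, whereas among LMN samples only that of animal 2 did. C1qa was higher in IML than in the somatic pools by 0.44 ± 0.10 (adjusted p = 0.034) and higher than in LMN by 0.53 ± 0.12 (adjusted p = 0.01998).

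The B chain gene C1qb was called through probe set 96020_at. That probe set read 93.6, 94.7, 90.1, 72.1 and 75.5 in IML, 48.2, 66.6, 59.3, 60.5 and 59.0 in LMN, and 67.5, 87.1, 55.5, 61.5 and 48.7 in MMN. No LMN value reached an IML value, and 1 MMN value, that of animal 2, exceeded the IML values of animals 4 and 5. The difference from the somatic pools was 0.48 ± 0.10 (adjusted p = 0.01935), a 1.40-fold difference for C1qb. Its brighter probe set, 162276_i_at, read 150.1, 161, 144, 111 and 138 in IML, 147, 145, 148, 148 and 150.2 in LMN, and 123, 152, 132, 123 and 145 in MMN. It overlapped between pools and differed by -0.01 ± 0.07 between IML and somatic samples (adjusted p = 0.9546). The C1qb probe sets had a correlation of only 0.17 over 15 samples, and which of them follows the transcript better was not tested.

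C1qc encodes the C chain, and its promoter is the one with the Spi1 motif above. It read 281, 294, 230.3, 232 and 241 in IML, 244, 196, 175, 195 and 191 in LMN, and 225, 254, 166, 196 and 204 in MMN. The overlap came from the LMN sample of animal 1 and the MMN sample of animal 2, while within each animal IML was the highest of the 3 pools. C1qc was higher in IML than in the somatic pools by 0.33 ± 0.06 (adjusted p = 0.01336), and its differences in single animals, 0.25 to 0.44, spread little.

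Ctss encodes cathepsin S, a lysosomal cysteine protease that trims the invariant chain of MHC class II molecules. It read 1601, 1323, 1097, 645 and 1320.5 in IML, 472, 768, 722, 569.6 and 570.1 in LMN, and 431, 1059.6, 713, 568 and 775 in MMN. The IML sample of animal 4 lay inside the range of both somatic pools, and the other 4 IML samples lay above all somatic samples. Ctss was higher in IML than in the somatic pools by 0.83 ± 0.18 (adjusted p = 0.02499), a 1.78-fold difference. By animal it was 1.83, 0.55, 0.61, 0.18 and 0.99, so that animal 1 had the largest and animal 4 the smallest difference.

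Lyz2, the lysozyme of macrophages and granulocytes, had the largest difference of the 10 genes and the largest spread between animals. Probe set 100611_at read 118, 128, 535, 118 and 97.1 in IML, 42.7, 72.1, 35.3, 31.8 and 40.1 in LMN, and 60.5, 131, 79.8, 36.9 and 46.0 in MMN. All IML values exceeded all LMN values, the MMN sample of animal 2 exceeded 4 of the 5 IML values, and the IML sample of animal 3 stood far above the rest. The difference from the somatic pools was 1.58 ± 0.31 (adjusted p = 0.01711), 2.99-fold for Lyz2, and by animal it was 1.21, 0.40, 3.33, 1.78 and 1.18. Without the IML sample of animal 3, a setting chosen after seeing the data, it was 1.14 ± 0.19 (adjusted p = 0.01849). The second Lyz2 probe set, 162309_at, read 35.6 to 39.5 in IML, 30.0 to 38.3 in LMN and 29.7 to 36.4 in MMN, and its difference of 0.18 ± 0.06 was not called (adjusted p = 0.1114).

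Cd68, a glycoprotein of macrophage lysosomes, was just outside the threshold against both somatic pools and inside it against LMN. Probe set 103016_s_at read 147, 108, 107, 102 and 100.3 in IML, 97.5, 92.9, 86.5, 89.0 and 84.4 in LMN, and 108, 117, 88.7, 101 and 88.7 in MMN. All IML values exceeded all LMN values, while the MMN sample of animal 2 exceeded 4 of the 5 IML values. The difference was 0.24 ± 0.06 from the somatic pools (adjusted p = 0.05826) and 0.31 ± 0.07 from LMN (adjusted p = 0.02515). The Cd68 call against LMN was kept without animal 2 and lost without any other animal. The other Cd68 probe set read 14.4 to 20.9 over all samples and differed from the somatic pools by 0.08 ± 0.05 (adjusted p = 0.3446). Aif1, the calcium-binding protein Iba1 that is commonly stained to show microglia, read 57.3, 45.8, 43.5, 47.7 and 48.1 in IML, 48.5, 38.6, 43.3, 51.8 and 51.1 in LMN, and 48.4, 41.2, 42.9, 47.0 and 50.9 in MMN. Its pools overlapped throughout, with a difference from the somatic pools of 0.06 ± 0.05 (adjusted p = 0.5747). The Aif1 probe set was dim too, at percentile 22.1 of all probe sets, and whether it detects the transcript was not tested. Dimmer still were the second probe sets of Lyz2 and Cd68, at percentiles 16.5 and 6.3.

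Against LMN alone, 8 of the 10 genes were higher in IML and none was lower, the 7 above and Cd68. The 8 probe sets were 53.3% of the 15, and 8.98% of all probe sets were called in this comparison, 5.46% higher in IML and 3.53% lower. In Lyz2, Tyrobp, C1qb and Cd68 all 5 IML values exceeded all 5 LMN values, in 4 of 15 probe sets against 2.11% of all. Lyz2 had the largest difference, 1.88 ± 0.36 (adjusted p = 0.01062), 3.67-fold, followed by Tyrobp with 0.94 ± 0.15 (adjusted p = 0.004762) and Ctss with 0.91 ± 0.21 (adjusted p = 0.02263). The differences of C1qb and C1qc were 0.54 ± 0.11 (adjusted p = 0.0164) and 0.36 ± 0.07 (adjusted p = 0.01194).

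Against MMN alone no probe set of the 10 genes was called by limma, and 0.346% of all probe sets were. At an unadjusted p under 0.05, 8 of the 15 were higher in IML and none lower, against 12.3% of all probe sets in either direction and 6.84% higher. The differences of Lyz2, Tyrobp and Ctss were 1.28 ± 0.36, 0.65 ± 0.15 and 0.76 ± 0.21, with adjusted p of 0.1986, 0.1214 and 0.1957. Those of C1qa, C1qb and C1qc were 0.35 ± 0.12, 0.43 ± 0.11 and 0.30 ± 0.07, with adjusted p of 0.2784, 0.1745 and 0.1238. A difference above 0 was measured in 14 of 15 probe sets, against 52.5% of all. In 1 of the 15, Tyrobp, all IML values exceeded all MMN values, against 0.37% of all probe sets.

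Between the somatic pools, LMN less MMN, no probe set of the 10 genes was called by limma and none had an unadjusted p under 0.05, against 0.0564% of all probe sets called and 11.6% at the unadjusted p. The difference was below 0 in 11 of the 15 and above 0 in 4, whereas it was above 0 in 57.7% of all probe sets. These signs were not all stable. With 1 animal left out the difference ran from -0.10 to 0.023 for C1qc and -0.083 to 0.033 for Fcer1g 160692_at, both below 0 with all animals. It ran from -0.019 to 0.040 for Aif1 and -0.0014 to 0.073 for Csf1r 161832_r_at, both above 0 with all animals. Lyz2 gave -0.59 ± 0.36 (adjusted p = 0.5681), Tyrobp -0.28 ± 0.15 (adjusted p = 0.507), Cd68 -0.16 ± 0.07 (adjusted p = 0.4543) and Csf1r -0.14 ± 0.08 (adjusted p = 0.5415). Of these, Lyz2, Tyrobp and Cd68 were lower in LMN in 5 of 5 animals. The share of all probe sets lower in LMN in 5 of 5 animals was not counted, so nothing is read from this. The pool means ran in the order IML, MMN, LMN from high to low in 11 of 15 probe sets, against 20.7% of all, and the step between MMN and LMN was not called in any of them. Comparisons that share a pool share its samples, so their values are not independent of each other.

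**Figure D2:**
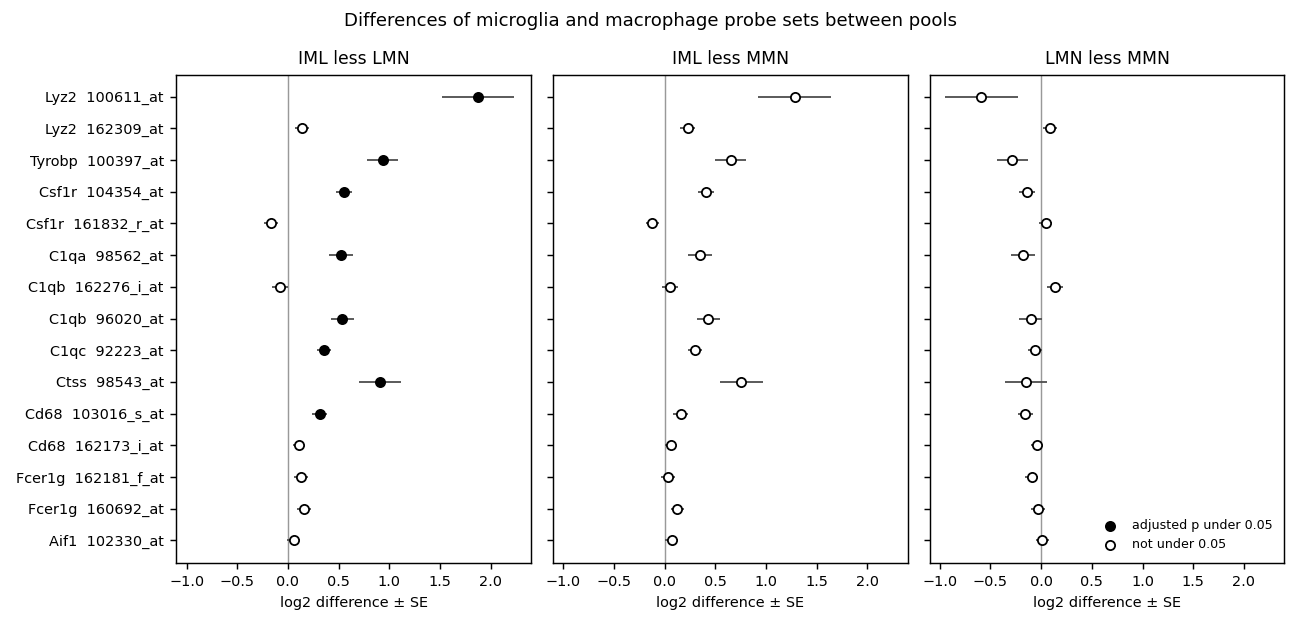
Difference between pools for each of the 15 probe sets on the log2 scale, with bars of 1 standard error of the limma model (5 animals); the panels, left to right, show IML less LMN, then IML less MMN, then LMN less MMN, and filled points had an adjusted p under 0.05. Filled points occur in the first panel, 8 of 15, and in neither of the others.

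The mean over the 10 genes, each centred on its own mean over 15 samples and taken by its brightest probe set, summarises the samples. It was 0.58, 0.32, 0.48, 0.03 and 0.20 in IML of animals 1 to 5, -0.18, -0.13, -0.30, -0.31 and -0.27 in LMN, and -0.04, 0.21, -0.21, -0.23 and -0.16 in MMN, on the log2 scale. The MMN sample of animal 2 thus stood above the IML samples of animals 4 and 5, and it had the highest MMN value in 8 of the 15 probe sets. The IML sample of animal 4 was the lowest IML sample in 5 of the 15, and that of animal 1 the highest in 9. Without the MMN sample of animal 2, a setting chosen after seeing the data, 8 of the 15 were called higher in IML than in the somatic pools, Cd68 being added with 0.26 (adjusted p = 0.03033), and none was called against MMN, where 10 had an unadjusted p under 0.05.

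The calls changed when single animals were left out. Over all probe sets the count in IML less somatic, 686, fell as well, to 169 without animal 3 and 164 without animal 5. The differences of the called genes stayed above 0 in every fit that left out 1 animal. They ran from 1.142 to 1.875 for Lyz2, 0.43 to 0.54 for C1qb, 0.30 to 0.35 for C1qc and 0.58 to 1.00 for Ctss. Without animal 3 the called probe sets against the somatic pools numbered 2, Lyz2 and Csf1r, and without animal 5 also 2, Tyrobp and Csf1r. Csf1r was called whichever animal was left out. Lyz2 missed the threshold without animal 4 (adjusted p = 0.06684) and without animal 5 (adjusted p = 0.06745), and Tyrobp without animal 3 (adjusted p = 0.05539). C1qb, C1qc and Ctss missed it without animal 3 and without animal 5, with adjusted p of 0.0966 and 0.06745 for C1qb, 0.07214 and 0.06806 for C1qc, and 0.09196 and 0.1094 for Ctss. C1qa was called in none of these 5 fits, with adjusted p of 0.05098 to 0.1321, and Cd68 was called without animal 2 (adjusted p = 0.04626). Without the IML sample of animal 3 alone, 3 of the 15 were called. Against LMN the count of 8 became 4 without animal 3, 4 without animal 5 and 5 without the LMN sample of animal 2. In that comparison Lyz2, Tyrobp and Csf1r were called whichever animal was left out. C1qa missed the threshold without animals 3 and 5 (adjusted p = 0.06091 and 0.0524), C1qb without animals 1 and 3 (adjusted p = 0.05222 and 0.0623), and C1qc without animal 5 (adjusted p = 0.05898). Ctss missed it without animals 2, 3 and 5, with adjusted p of 0.05313 to 0.1123, and Cd68 without animals 1, 3, 4 and 5, with adjusted p of 0.05261 to 0.08969. Differences between the 2 arrays of a sample had medians of 0.16 for Lyz2, 0.10 for Tyrobp, 0.12 for Csf1r and 0.23 for Ctss (log2), smaller than the IML differences of these genes. Single samples reached 0.82 for C1qb, 0.81 for C1qa, 0.63 for C1qc and 0.52 for Cd68 103016_s_at, above the differences of those genes.

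Other genes of microglia and macrophages were listed for comparison. This list and those below were chosen with earlier results of these data known, so their counts are descriptions. Of 39 measured of 52 listed, 5 were called higher in IML than in the somatic pools, 1 lower and 33 were not called, with a median of 0.11, against -0.01 over 8251 genes, of which 519 were called, 6.29%. The leukocyte surface protein Cd53 was higher by 0.95 ± 0.16 (adjusted p = 0.009657), the lysosomal membrane protein Laptm5 by 0.68 ± 0.16 (adjusted p = 0.03775), Lst1 by 0.53 ± 0.12 (adjusted p = 0.02547) and the macrophage perforin-like protein Mpeg1 by 0.38 ± 0.09 (adjusted p = 0.02673). The second probe set of Laptm5 gave 0.47 ± 0.10, and that of Mpeg1, a dim one, gave 0.02 ± 0.05. Ccr2, a chemokine receptor of monocytes, was the other gene called higher. Lcp1, an actin-bundling protein of leukocytes, was lower, at -1.02 ± 0.26 in 5 of 5 animals (adjusted p = 0.04583), a size above that of any gene of the list called higher, and its second probe set gave 0.00 ± 0.04. Ccr2 and Lcp1 were named after their values were seen, because the counts include them. Without animal 5 none of this list was called higher, without animal 3 there was 1 and without animal 1 there were 2, and none was called lower in any of the 5 fits that left out 1 animal. Markers widely used for microglia did not pass the test, with differences of -0.04 ± 0.05 for Cx3cr1, the fractalkine receptor (adjusted p = 0.7244), and -0.03 ± 0.04 for the integrin Itgam (adjusted p = 0.7256). The macrophage marker Adgre1 gave 0.16 ± 0.06 (adjusted p = 0.1596) and the factor Spi1 0.11 ± 0.06 (adjusted p = 0.299). Cd14 gave 0.11 ± 0.06 (adjusted p = 0.3935). Of 3 probe sets of the leukocyte phosphatase Ptprc, the brightest gave 0.08 ± 0.07 and 101048_at gave 0.59 ± 0.16 (adjusted p = 0.05742).

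Macrophages of vessels and meninges express Mrc1, Lyve1 and Stab1, scavenger or lectin receptors, and these 3 of the 8 measured genes of that list of 14 were called higher in IML, none lower and 5 not called, with a median of 0.07. Mrc1, the mannose receptor, was higher by 0.76 ± 0.14 (adjusted p = 0.01441), Stab1 by 0.48 ± 0.10 (adjusted p = 0.02048) and Lyve1 by 0.39 ± 0.08 (adjusted p = 0.02417), each in 5 of 5 animals. None of the list was called without animal 3 or without animal 5, and 1 was without animal 1 or without animal 4. Pf4 of the same list gave -0.04 ± 0.06 (adjusted p = 0.7713). The summed level of the 8 genes ran from 630.6 to 777.6 in IML, 584.5 to 709.8 in LMN and 585.6 to 773.5 in MMN.

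For partners of the 10 genes in their pathways, the counts in IML less somatic stand beside 6.29% of all genes called, and nothing is read from counts near that share. Of 20 measured complement genes of 31 listed, 1 was higher and 1 lower. Serping1, the C1 inhibitor, was higher by 1.10 ± 0.22 (adjusted p = 0.01811), and Cd59a, which blocks the membrane attack complex, fell by 0.34 ± 0.05 (adjusted p = 0.003767). Serping1 was not called without animal 3, 4 or 5. The median of the complement list was 0.03. None of 17 measured genes of ITAM adaptors, Fc receptors and downstream kinases, of 26 listed, was called, with a median of 0.02. Of 13 measured genes of Csf1 receptor ligands and downstream factors, none was higher and 1 lower, Flt3, a receptor kinase related to Csf1r, at -0.60 ± 0.08 (adjusted p = 0.00227). The second Flt3 probe set gave -0.03 ± 0.06. Csf1, the ligand of Csf1r, gave 0.10 ± 0.07 (adjusted p = 0.4302).

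Ctss, Cd68 and Lyz2 belong to a wider group of lysosomal genes. Of 28 measured cathepsins, lysosomal proteins and cystatins of 31 listed, 5 were higher in IML, none lower and 23 not called, with a median of 0.11. Ctsc, cathepsin C, which activates granule proteases, was higher by 0.96 ± 0.12 (adjusted p = 0.00227), the membrane protein Cd63 by 0.74 ± 0.13 (adjusted p = 0.009584), the glucuronidase Gusb by 0.47 ± 0.09 (adjusted p = 0.01659) and the cathepsin inhibitor Cst3 by 0.40 ± 0.09 (adjusted p = 0.02484). Laptm5, given above, was the other one. The count was 2 without animal 3, 3 without animal 4 and 2 without animal 5. Against MMN, Ctsc was the 1 gene of this list that was called, at 0.82 ± 0.14 (adjusted p = 0.03451). Against the somatic pools the other 2 probe sets of Ctsc gave -0.01 ± 0.05 and -0.07 ± 0.05.

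Markers of meningeal cells and fibroblasts differed between the same pools. Their list too was chosen with earlier results of these data known, so its count of calls is a description. Of 20 meningeal and fibroblast genes, all measured, 12 were called higher in IML than in the somatic pools, none lower and 8 not called, with a median of 0.82. Among them the collagen gene Col1a2 was higher by 1.30 ± 0.23 (adjusted p = 0.01152). Its second probe set, of like brightness, gave 0.02 ± 0.05 and was not called. Their summed level was 25587.8 to 37524 in IML, 10344.6 to 25501 in LMN and 13002.9 to 41052.3 in MMN. The sum of the 10 microglia and macrophage genes was 1780 to 3248.9, 1479.5 to 1782.1 and 1517.2 to 2352.9 in the same pools. Each sum can be read between pools only. The 2 sums hold different numbers of genes, intensities of different probe sets are not on 1 scale, and bright genes weigh most. Ctss alone read 645 to 1601 in IML. The count of 12 became 6 without animal 3 and 3 without animal 5. In LMN less MMN all 20 of these genes had a difference below 0 and none was called, with a median of -0.66. Their part in the result of the 10 genes was not tested.

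In the lists of other cells of the cord, the counts again stand beside 6.29% of all genes called in either direction. Among vascular genes 1 of 17 measured of 20 listed was called higher in IML, Vwf, which was not called without animal 1, 3, 4 or 5. The second Vwf probe set gave -0.0012 ± 0.0422. The summed level of the vascular genes was 2810.6 to 6165.5 in IML, 2241.2 to 3409.5 in LMN and 2785.5 to 6201 in MMN. Among 11 measured astrocyte genes of 14 listed 1 was higher, Fabp7, though not without animal 1, 4 or 5, with sums of 13588.3 to 18152.9 in IML, 10411.3 to 14800.6 in LMN and 11965.9 to 16748.2 in MMN. Among 10 measured oligodendrocyte genes of 17 listed 1 was higher, Gsn, though not without animal 3 or 5, with sums of 11550.9 to 21093.9 in IML, 9431.7 to 18711.4 in LMN and 12954.4 to 18167.8 in MMN. None of 6 measured red blood cell genes of 10 listed was called, with sums of 3353.7 to 10832.6 in IML, 3233.9 to 4851 in LMN and 3998.4 to 5754.2 in MMN. Of 7 measured motoneuron genes of 14 listed, 3 were lower in IML, Ret, Nefh and Nefl, and 4 not called. That count was 1 without animal 1, 1 without animal 3 and 1 without the IML sample of animal 3. Their summed level was 5066.8 to 8228.7 in IML, 10062 to 18447.1 in LMN and 8515.2 to 12404 in MMN. This sum weighs bright genes most, and single genes differed in how far the pools lay apart. On the log2 scale Nefh was 11.30 to 11.97 in IML and 12.10 to 12.94 in LMN. Prph of the same list was 8.80 to 11.44 in IML and 8.19 to 11.46 in LMN. The share of all probe sets with every IML value below every LMN value was not counted, so nothing is read from these ranges. The vesicular acetylcholine transporter Slc18a3, a marker of cholinergic neurons, to which motoneurons of both kinds belong, gave -1.33 ± 0.36 (adjusted p = 0.05789). No marker value was 0, since the lowest value in the table was 6.46. The part of these markers in the result was not tested.

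**Figure D3:**
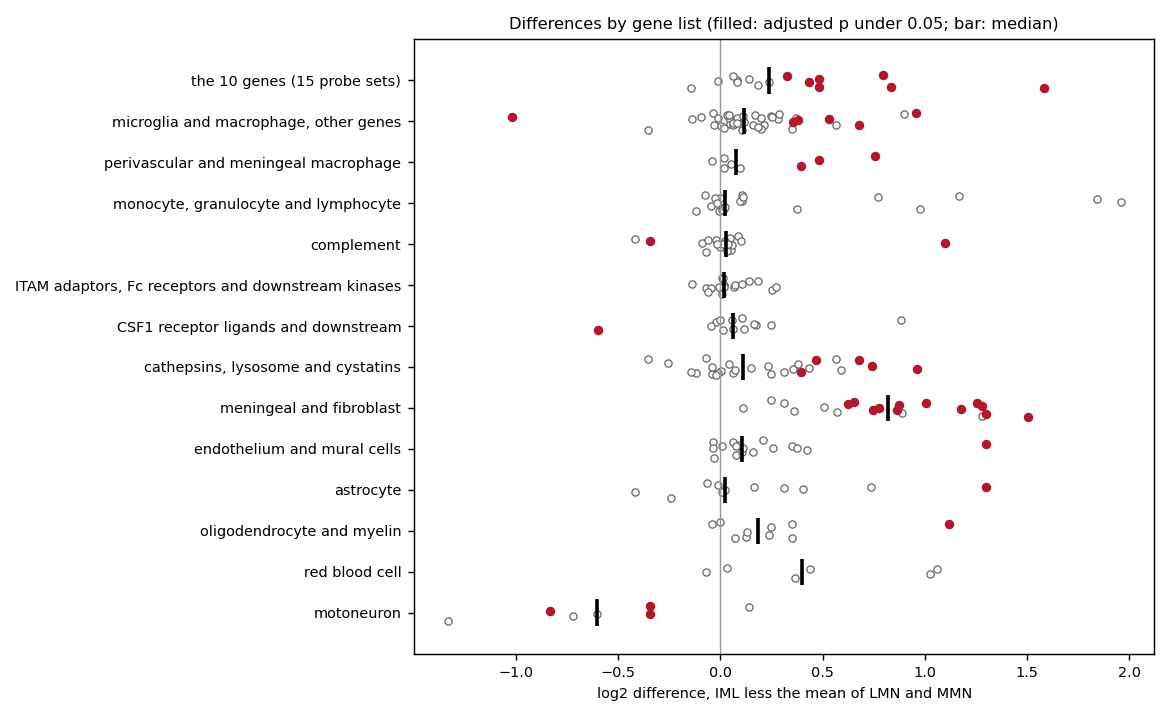
Difference between IML and the average of both somatic pools (log2) with 1 row for the 15 probe sets of the 10 genes and 1 row per list for every measured gene (brightest probe set), filled points for an adjusted p under 0.05 and a bar at the median. The meningeal and fibroblast row has its median at 0.82 with 12 of 20 genes filled, and the motoneuron row has its median at -0.60.

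Of the genes of monocytes, granulocytes and lymphocytes, none of the 21 measured of 25 listed was called, and the median was 0.02. Their summed level was 1818.8 to 17151 in IML, with a median of 2231.6, 1780.5 to 2184.2 in LMN, and 1751.7 to 4307.9 in MMN. S100a8 and S100a9, calcium-binding proteins that granulocytes hold in large amounts, differed between IML and somatic samples by 1.84 ± 0.68 (adjusted p = 0.1447) and 1.96 ± 0.67 (adjusted p = 0.1177). On the log2 scale S100a8 was 5.41, 5.53, 12.38, 8.73 and 7.39 in IML of animals 1 to 5, 5.26 to 5.93 in LMN, and 9.78 in MMN of animal 3 but 5.45 to 5.60 in the other MMN samples. The highest S100a9 values lay in the same 2 samples of animal 3, and the same IML sample had the highest Lyz2 value, 535. The part of granulocyte transcripts in the Lyz2 values was not tested. S100a8 was also higher in the IML samples of animals 4 and 5 than in any LMN sample, and those of animals 1 and 2 lay within the LMN values. Lyz2 read 118 and 128 in IML of animals 1 and 2, and 118 and 97.1 in IML of animals 4 and 5. The Lyz2 call was lost without animal 4 or 5 and kept without animal 3, as given above.

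**Figure D4:**
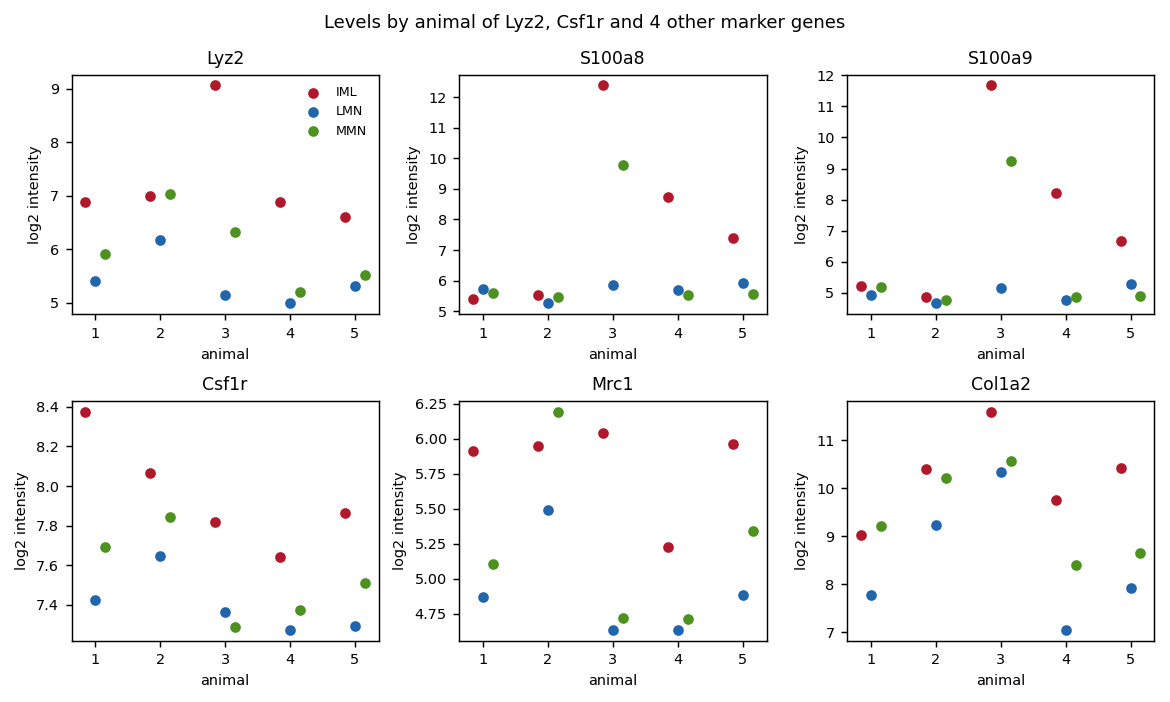
Log2 intensity of Lyz2, S100a8, S100a9, Csf1r, Mrc1 and Col1a2 in the IML, LMN and MMN sample of each of the 5 animals along the x axis. S100a8 and S100a9 are highest in IML of animal 3, as is Lyz2 with 9.06, whereas Csf1r is highest in IML of animal 1.

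The genes whose levels most resembled the mean of the 10 over 15 samples were Mpeg1, Plscr1, Hk2, D430019H16Rik, Man2a1, Ccl9, Col15a1 and Kcna5, with Pearson correlations of 0.948, 0.938, 0.930, 0.915, 0.909, 0.909, 0.908 and 0.898. These are descriptions over samples that share libraries, animals and pool differences. Mpeg1 was one of the listed macrophage genes, and Ccl9 is a chemokine. Since the mean of the 10 was itself higher in IML, a difference between pools in genes chosen for likeness to it follows largely from the choice and is given without a test. Between IML and the somatic pools it was 0.41 for Ccl9, 1.02 for D430019H16Rik and 0.38 for Plscr1, the phospholipid scramblase. Among pairs of the 15 probe sets, Csf1r 104354_at and Cd68 103016_s_at had the highest correlation over 15 samples, 0.88, and Csf1r 161832_r_at and Ctss the lowest, -0.61.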

How the data were processed

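Per the labels, the authors amplified the RNA in 2 rounds, normalised the array signals with R-pack and deposited inverse logs, which are linear intensity values; the method behind R-pack is not stated there. Amplification from few cells adds spread. No detection calls were used here, so a dim value cannot be set against background. Array medians were 131.69 to 145.908, and correlations between the 2 arrays of a sample 0.9826 to 0.9984. The deposited table held 12488 probe sets; 66 controls were left out. Of 12422 tested, 10833 had 1 symbol, 396 several and 1193 none, and 10817 symbols were taken through the gene identifier from GRCm38.p6.

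The deposited intensities were log2 transformed without an offset, and the 2 arrays of a sample were averaged. limma 3.58.1 (R 4.3.3) was fitted over 15 samples with pool and animal as fixed terms and eBayes; two-sided p-values were adjusted by Benjamini-Hochberg across the whole table, and 0.05 was the threshold. Per the labels each animal gave all 3 pools. Samples of 1 animal from different pools had correlated deviations from their pool means, with r of 0.288 to 0.747 in 15 pairs. In 60 pairs of different animals r was -0.614 to 0.387, and 14 of them were over 0.1. The steps were tested on simulated data. The 10 genes and all lists were chosen with earlier results of these data known. Named genes were all probe sets of the 10, up to 4 called genes with the smallest p per list, a fixed set of markers where measured, and the 8 genes most like the mean of the 10. Alternatives left out or randomised the animal block, used 1 technical set, rescaled or floored values, left out dim probe sets, changed the variance model, kept 2 pools, or left out animals or samples.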

Additional observations from a re-analysis of the deposited data

Results flagged for a closer look

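In 9 of 180 groups of 5 samples 1 sample stood apart, by the gap to its nearest neighbour over the range of the group; chance gives about 1 in 20. Of the 45 groups of the 10 genes, 2 were among them. Lyz2 in IML was highest in animal 3, with 9.06 (log2 intensity) against 7.00 in the nearest IML sample. Cd68 (103016_s_at) in IML was highest in animal 1, with 7.20 against 6.76. Mrc1 in IML was lowest in animal 4, with 5.22 against 5.91. Csf1 in IML was highest in animal 1, with 8.82 against 8.42. Ptprc in LMN was highest in animal 1, with 5.13 against 4.91. In MMN, Ctsc was highest in animal 2, with 6.76 against 5.68, and Itgam in animal 1, with 6.09 against 5.81. S100a8 and S100a9 in MMN were highest in animal 3, with 9.78 against 5.60 and 9.23 against 5.17.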

How the results depend on the processing

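The count of called probe sets of the 10 genes was 7 in IML less somatic and 8 in IML less LMN. With no replicate block for the animal it was 0 (9 at an unadjusted p under 0.05, limma) and 2, although the animals pair the samples. In IML less somatic it was 4 with technical set 2 alone, 3 with a floor of 32 and 3 without the IML sample of animal 3, and 2 to 7 when 1 animal was left out. In IML less LMN it was 5 with technical set 2 alone, 5 without the LMN sample of animal 2, and 4 to 7 when 1 animal was left out. It was 0 in IML less MMN (6 to 10 at the unadjusted p) and in LMN less MMN (0 to 3) under every alternative run. Settings without the IML sample of animal 3 or the MMN sample of animal 2 were chosen after seeing the data.

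Over all probe sets, IML less somatic gave 686 calls, 46 with no block, 304 with set 1 alone, 282 with the floor, 281 without the IML sample of animal 3 and 164 to 650 when 1 animal was left out. IML less LMN gave 1116, and 135 with no block, 601 with set 1, 713 with set 2, 717 with the floor, 705 with only those pools in the fit and 371 to 935 with 1 animal left out. IML less MMN gave 43, and 4 with no block, 67 with a random block, 9 with set 1, 10 with the floor, 6 with only those pools, 21 without the LMN sample of animal 2, 15 without the IML sample of animal 3 and 0 to 42 with 1 animal left out (at least 978 at the unadjusted p). LMN less MMN gave 7, and 0 with no block (435 at the unadjusted p), 4 with a random block, 3 with set 2, 67 with only those pools and 0 to 5 with 1 animal left out (at least 1084 at the unadjusted p). The cause was not tested.

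Of 263 values of called differences of the 10 genes under alternatives, 67 missed the threshold and none changed sign. Differences that changed sign were not called in any of these settings. In LMN less MMN the alternatives ran from -0.25 to 0.043 for C1qb 96020_at, -0.10 to 0.023 for C1qc and -0.13 to 0.070 for Fcer1g 160692_at. They ran from -0.019 to 0.050 for Aif1, -0.061 to 0.24 for Lyz2 162309_at and -0.0014 to 0.073 for Csf1r 161832_r_at. C1qb 162276_i_at gave 0.096 and 0.038 with set 2 in IML less somatic and IML less LMN, and -0.045 with set 1 in IML less MMN; with 1 animal left out it ran from -0.054 to 0.057, -0.14 to 0.0071 and -0.0017 to 0.11. Fcer1g 162181_f_at in IML less MMN gave -0.042 with set 1, -0.027 without the IML sample of animal 3 and -0.033 to 0.074 with 1 animal left out. In IML less somatic, Itgam gave 0.065 with set 2 and Cx3cr1 -0.065 to 0.0016 with 1 animal left out. For Cd68 162173_i_at no value could be had with the floor, which all its values lay under. Among the other named genes 142 of 540 values of called differences missed the threshold.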
